A study of Drosophila melanogaster with 8 samples.

Results

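The bric-a-brac locus, at 61F on chromosome arm 3L of Drosophila melanogaster, holds the paired genes bab1 and bab2. It was taken as the windows of 1 kb between 1020050 and 1200049 on 3L in the dm3 genome build. Of these non-overlapping windows, 164 had a deposited value, out of 23430 on the whole of 3L and 114670 on X, 2L, 2R, 3L, 3R and 4 together. H3K27me3, trimethylated lysine 27 of histone H3, was profiled by chromatin immunoprecipitation in adult testes of males that were 3 days old and homozygous for mutant can or mutant comr. Which alleles were used is not stated in the labels. Each genotype had 2 biological replicates of H3K27me3 and 2 of input chromatin, with 400 testes as starting material and flies kept at 23 °C, and the deposited data hold 1 combined profile per genotype. All values are the deposited score of H3K27me3 over input, which lies on both sides of 0 with a median of 0 over all rows.

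The genes bab1 and bab2 encode related nuclear proteins with a BTB domain, which pairs proteins with each other, and a Pipsqueak-type domain, which binds DNA. In Drosophila they pattern the tarsal segments of the leg, shape the terminal filaments of the ovary and set the sex-specific pigment of the abdomen, where the Hox protein Abd-B and the sex-determination factor Doublesex control bab expression. H3K27me3 is written by Polycomb repressive complex 2 through its enzyme Enhancer of zeste, is bound by Polycomb in Polycomb repressive complex 1, and typically spreads over kilobases of silent developmental genes. The product of can is a testis homologue of a TBP-associated factor, and that of comr is a subunit of the testis meiotic arrest complex. In either mutant the germ cells stop as spermatocytes and make no spermatids.

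In the RefSeq gene table for the Release 6 assembly, bab1 and bab2 follow each other on 3L with no gene listed between them. CG9205 precedes bab1 and CG13912 follows bab2. That assembly differs from dm3, so no gene start or end was placed on the profile, and a bin of the locus cannot be given to bab1, to bab2 or to the interval between them.

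Both mutants carried a high H3K27me3 score over the bric-a-brac locus. The locus averaged 0.37 ± 0.04 in can, and in comr it averaged 0.36 ± 0.04 (standard error, 164 windows), against -0.02 in both over the rest of 3L. The windows of can ranged from -0.92 to 2.06 with a median of 0.285, and those of comr from -0.91 to 2.03 with a median of 0.28. Single windows thus overlapped widely with the rest of the arm, where the SD over windows was 0.53 in both mutants. Scores above 0 were found in 126 of the 164 windows in can and 119 in comr, or 76.8% and 72.6%, where the rest of 3L had 48.1% and 48.7%. Standard errors here come from windows of a single profile and say nothing of the spread between libraries, for which no test could be made. They also take no account of likeness between neighbouring windows.

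The rank of the locus along its own arm was high in each mutant. For this, 3L was divided into tiles of 180 kb, and those touching the locus were left out. The 134 tiles kept had mean scores between -0.31 and 0.39 in can and between -0.42 and 0.40 in comr. No tile covered the positions between 940499 and 1300500. The 100 kb to the right of the locus, at 0.29 in can and 0.41 in comr, were therefore not ranked. In can 2 tiles stood above the locus, and in comr 2 did. The tile from 22360500 to 22540499 was above it in both, with 0.39 in can and 0.40 in comr. The tile from 1660500 to 1840499 was higher in can, at 0.373 against 0.26 in comr. The tile from 10840500 to 11020499 was higher in comr, at 0.40 against 0.26 in can. None of these tiles exceeded the locus by 2 standard errors of the locus mean.

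**Figure D1:**
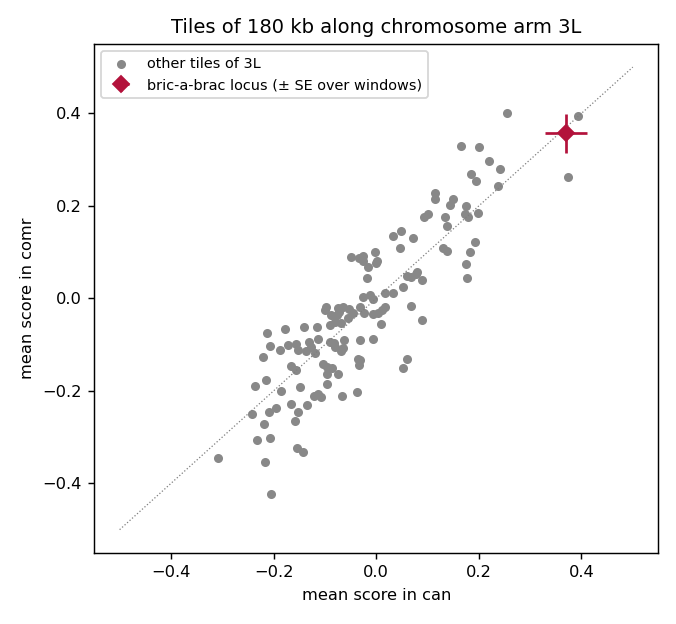
Each grey point is a tile of 180 kb on 3L, placed by its mean score in can (x axis) and in comr (y axis). Tiles touching the locus are left out. The red diamond is the bric-a-brac locus with its standard errors over windows. The locus lies at 0.37 and 0.36, near the dotted line of equal scores and beyond all but 3 tiles in one mutant or the other.

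Enriched windows, those in the top 10% of a profile's windows over X, 4 and the large autosomal arms (from a score of 0.72 in can and of 0.71 in comr upwards), were frequent in the locus. In can 42 of 164 windows were enriched, 25.6% (95% Wilson interval 19.5 to 32.8), against 7.62% over the rest of 3L. In comr 43 were enriched, 26.2% (20.1 to 33.4), against 8.10%. These intervals cover counting error only and take no account of likeness between neighbouring windows. None of the 134 tiles had a higher share in can, where the largest was 22.8%, and 1 had a higher share in comr, at 32.8%.

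The mutants shared many of these windows. In the locus 21 windows were enriched in both, 12.8% of its windows, against 1.61% over the rest of 3L. They made up 32.8% of the 64 windows enriched in either mutant (95% Wilson interval 22.6 to 45.0), against 11.4% (10.4 to 12.5) over the rest of the arm. A locus with more enriched windows in each mutant also has more overlap without any agreement at single positions. Across the windows of the locus the correlation between the mutants was r = 0.45 (Spearman's rho = 0.44, n = 164), and 0.32 over the rest of 3L. In bins of 10 kb with at least 5 windows, r was 0.75 (rho = 0.72, n = 17) in the locus and 0.65 on the rest of 3L. These correlations describe positions along 2 profiles that were normalized to each other, and windows are not replicates.

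**Figure D2:**
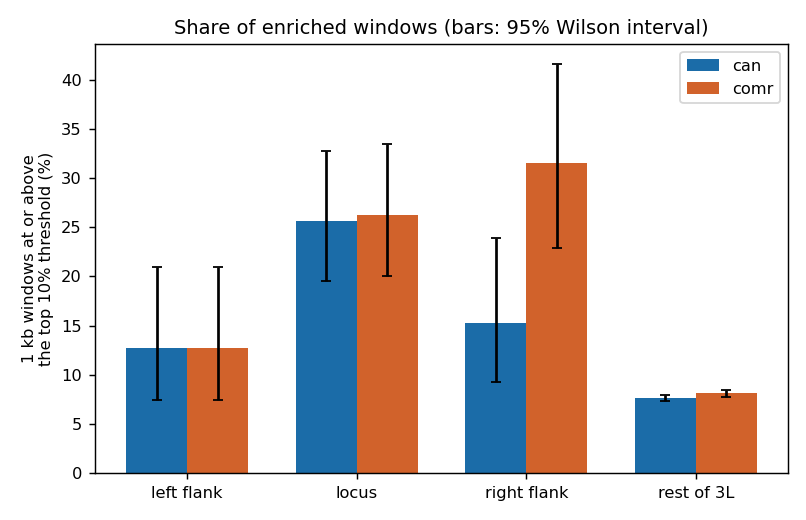
Bars give the percentage of 1 kb windows at or above the top 10% threshold of each profile in the locus, in the 100 kb on each side and on the rest of 3L, with 95% Wilson intervals. The locus stands at 25.6% in can and 26.2% in comr, while the right flank is at 15.2% in can and 31.5% in comr, with intervals that overlap.

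H3K27me3 was uneven along the locus, and both mutants had their peak in the same place. Of the 18 bins of 10 kb in the locus, 17 held at least 5 windows. All 17 had a mean above 0 in can, where 45.5% of bins on the rest of 3L did, and 15 in comr, where 44.4% did. Those 15 were above 0 in both mutants, against 31.5% of 2365 bins on the rest of 3L. Bins next to each other are not independent, so these shares describe only how continuously the bin means lay above 0.

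The highest bin of the locus, from 1100000 to 1109999, had a mean of 0.83 ± 0.16 in can. In comr its mean was 0.97 ± 0.13 (standard error, 10 windows in each). In can its windows had a lowest score of 0.08, a median of 0.805 and a highest of 1.67. In comr they had a lowest score of 0.40, a median of 0.915 and a highest of 1.49. All 10 windows were therefore above 0 in both mutants, and 4 were enriched in both. By the mean of the mutants, 0.90, no other 10 kb bin on 3L was higher. Over 2L, 2R, 3L and 3R, 3 of 9380 bins were higher, and on X 4 of 2157 were. The same bin led 3L with rows starting at each kb, at 0.93 in can and 0.995 in comr. In bins of 20 kb, the first 20 kb from 1100000 had means of 0.58 (can) and 0.72 (comr), and 3 of 1206 other bins on 3L were higher.

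Scores were high, though uneven, over 50 kb that began with that bin. The 5 bins from 1100000 to 1149999 averaged 0.59 ± 0.07 in can, and 0.58 ± 0.07 in comr (standard error, 50 windows). This stretch was picked after its values were seen. Of 2315 stretches of the same length on the rest of 3L, taken every 10 kb, none was higher in can, 15 were higher in comr, and none was higher in both. Within it the bin from 1110000 scored 0.32 ± 0.09 in can and 0.47 ± 0.20 in comr. The bin from 1130000 scored 0.61 ± 0.21 in can and 0.60 ± 0.10 in comr. Without these 50 kb the locus averaged 0.27 in can and 0.26 in comr, still above the -0.02 of the arm.

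A second peak lay at the right end. The bin from 1180000 scored 0.63 ± 0.16 in can and 0.72 ± 0.11 in comr, and 9 bins of 3L outside the locus had a higher mean of the mutants. The bin from 1190000 followed with 0.47 ± 0.12 and 0.57 ± 0.14. Between the peaks the score was lower, and part of the interval was poorly covered. The fully covered bin from 1170000 had 0.21 ± 0.15 in can and 0.25 ± 0.17 in comr. The bin from 1150000 held only 4 windows, at -0.02 ± 0.38 in can and 0.14 ± 0.30 in comr, and that from 1160000 held 7, at 0.16 ± 0.14 and 0.11 ± 0.33. The few windows of these last bins leave their level poorly determined.

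**Figure D3:**
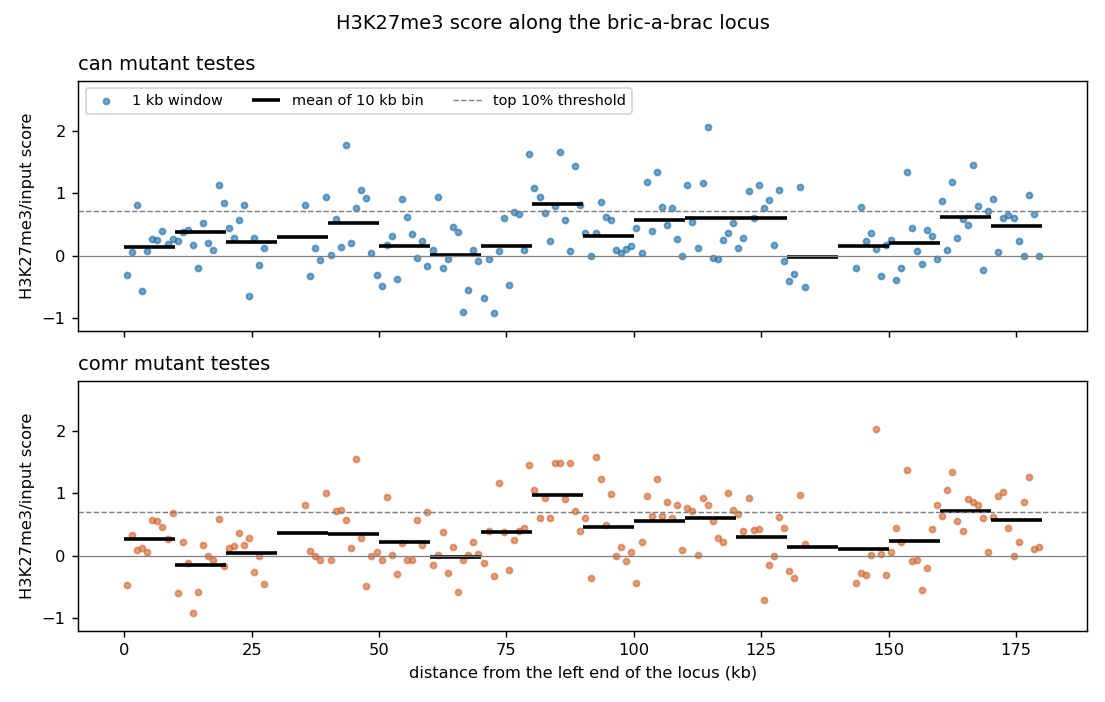
Points are the scores of 1 kb windows in can (top) and comr (bottom) by distance in kb from the left end of the locus, black lines are means of 10 kb bins, and the dashed line is the top 10% threshold of that profile. In both mutants the highest bin, at 0.83 and 0.97, begins 80 kb from the left end, and the gaps without points are windows with no deposited row.

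The left part of the locus was less marked in both mutants. The 80 kb to the left of the peak averaged 0.23 ± 0.06 in can and 0.17 ± 0.05 in comr (73 windows), and the 100 kb from the peak to the right end averaged 0.48 ± 0.05 and 0.50 ± 0.06 (91 windows). Enriched windows made up 17.8% of the left part in can and 12.3% in comr, against 31.9% and 37.4% of the right part. The division was placed at the peak after its position was known. By the mean of the mutants, the lowest bin with at least 5 windows, from 1080000 to 1089999, had means of 0.02 ± 0.16 (can) and -0.02 ± 0.09 (comr), close to the arm's mean. In comr alone the bin from 1030000 was lower, at -0.14 ± 0.14. The bin from 1080000 lay 10 kb from the highest bin, with the bin from 1090000 between them at 0.16 ± 0.24 and 0.39 ± 0.18. The left part also held a smaller rise at 1060000 to 1069999, with 0.52 ± 0.20 in can and 0.35 ± 0.18 in comr.

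Runs of enriched windows, with breaks of up to 3 kb bridged, were counted as domains from a length of 5 kb. In can 7 domains overlapped the locus and covered 40.0% of its length, against 5.01% of the rest of 3L. In comr 4 domains did, and they covered 38.9%, against 6.27%. These calls rested on the bridging of breaks: without it, 0 domains overlapped the locus in can and 1 in comr. Calls of both mutants lay over the same 54.0 kb of the locus, and calls of either mutant covered 48.9% of it, against 9.96% of the rest of 3L. The length shared on the rest of 3L was not computed. Longer calls in each mutant also share more length without any agreement in position. The domain at the peak began at 1099050 in both mutants, and it ended at 1114049 (15 kb) in can but at 1116049 (17 kb) in comr. Over the longer of these calls the score was 0.75 ± 0.12 in can and 0.92 ± 0.12 in comr.

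The next domain to the right began at 1122050 in both mutants. It ended at 1135049 in can (13 kb), where another call from 1142050 to 1153049 (11 kb) followed, and at 1143049 in comr (21 kb). The domain in the left part began at 1055050 in both, with its end at 1068049 in can and 1066049 in comr, and it starts at the edge of a stretch with no rows. The remaining call in the left part, from 1038050 to 1044049 (6 kb), was made in can and had no call of comr over it, with 0.68 ± 0.13 in can and 0.21 ± 0.10 in comr over 6 windows. High scores within called domains follow from the way they were chosen.

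Over the whole locus the mutants did not differ beyond the scatter of the windows. The mean difference, comr minus can, was -0.0125 ± 0.043 (standard error over 164 windows), with 75 windows higher in comr, 87 lower and 2 tied. Over the 134 tiles of 3L the same difference ranged from -0.22 to 0.16 with an SD of 0.081, and 121 tiles had a larger difference in size. The spread between replicate libraries is not known, and the profiles were given the same distribution, so a difference in the total amount of the mark cannot be read from them. In whole testes, fewer cells with the mark and less mark per cell cannot be told apart.

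In single bins the differences ran from -0.525 to 0.22, with 9 of the 17 bins higher in comr and 8 lower. The bin from 1030000 to 1039999 was the only one of the 17 whose difference exceeded 2 of its standard errors. Its mean was 0.38 ± 0.12 in can and -0.14 ± 0.14 in comr, so that comr minus can was -0.525 ± 0.11 over 10 windows. On the rest of 3L, 6.68% of bins were lower in comr by that rule and 5.45% were higher, so 1 bin of 17 lower and 0 higher is near the background of the arm. With rows starting at each kb this difference was -0.355. The next largest was in the bin from 1140000, with 0.60 ± 0.14 in can and 0.30 ± 0.15 in comr, or -0.295 ± 0.20 for comr minus can. The largest excess in comr was 0.22 ± 0.15, in the bin from 1090000. At the peak bin comr was higher by 0.14 ± 0.19, less than its error.

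**Figure D4:**
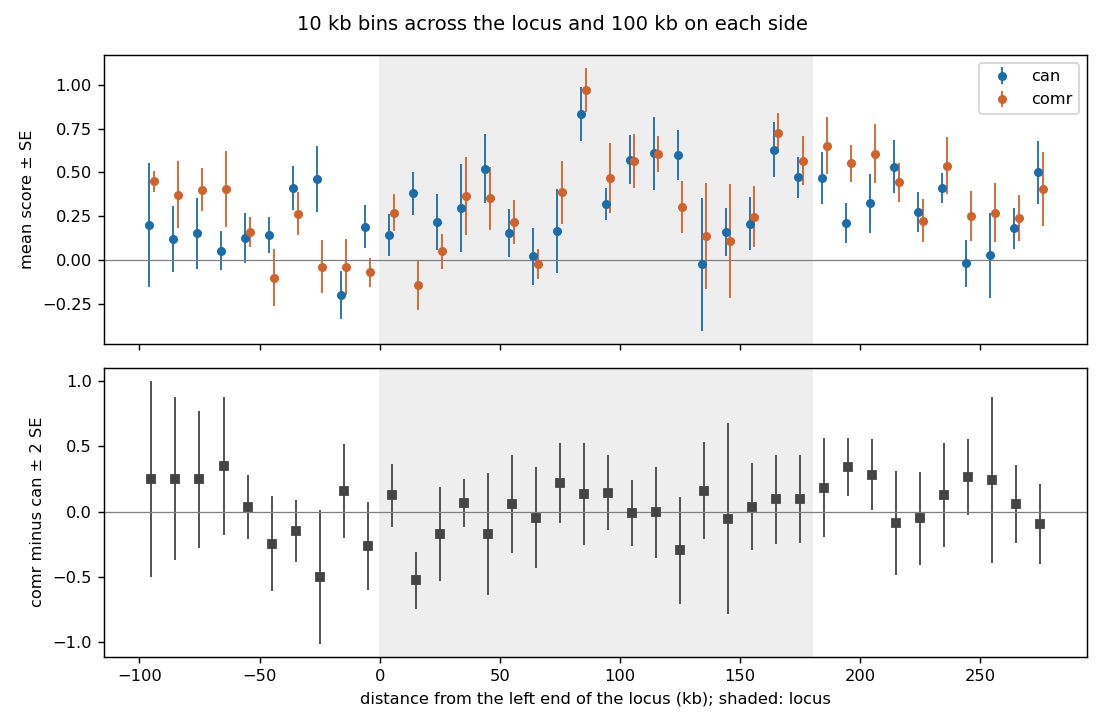
The upper plot gives the mean score of each 10 kb bin with its standard error over windows in can and comr, and the lower plot gives comr minus can with 2 standard errors, by distance in kb from the left end of the locus, which is shaded. Both mutants peak together at 0.83 and 0.97 inside the locus, and scores stay above 0 in the bins just to its right.

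The high score did not end at the right border of the locus, and at the left border no clear difference between the mutants was seen. The 100 kb to the left averaged 0.17 ± 0.05 in can and 0.16 ± 0.05 in comr (94 windows), which differed from the left part of the locus by less than 2 standard errors, and 12.8% of its windows were enriched in each mutant. In can the bin just outside the left end, from 1010000, scored 0.19 ± 0.12 and the first bin inside 0.14 ± 0.12. In comr the bin outside scored -0.07 ± 0.08 and the first bin inside 0.27 ± 0.11, before the next one inside at -0.14 ± 0.14. For comr minus can, the bin outside had -0.26 ± 0.17 and the first bin inside 0.13 ± 0.12, each within 2 standard errors of 0. The 100 kb to the right averaged 0.29 ± 0.05 in can and 0.41 ± 0.05 in comr (92 windows), and its share of enriched windows was 15.2% in can but 31.5% in comr. The bin just outside the right end, from 1200000, scored 0.47 ± 0.15 and 0.65 ± 0.16, as high as the last bin inside.

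The domain of comr at the right end crossed the border of the locus and ran from 1179050 to 1219049 (40 kb), with 0.45 ± 0.07 in can and 0.64 ± 0.06 in comr. In can the same stretch held separate calls from 1180050 to 1191049 and from 1197050 to 1207049. Over these 40 windows the difference was 0.19 ± 0.08, and 20 windows were enriched in comr against 11 in can. Much of it came from outside the locus, where the bin from 1210000 had 0.21 ± 0.11 in can and 0.55 ± 0.10 in comr, which was higher by 0.34 ± 0.11. That is more than 2 standard errors, as was found in 5.45% of bins on the rest of 3L. Inside the locus the last 20 kb differed by 0.096 ± 0.12. The domain was drawn from enriched windows of comr, which favours a high comr score over it.

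Coverage of the locus was incomplete. Of 180 possible windows, 16 (8.89%) had no row in either profile, against 4.32% on the rest of 3L. They lay in a gap of 7 windows from 1048050 to 1055049 and a gap of 9 windows from 1154050 to 1163049. Nothing is known of H3K27me3 in them from these profiles, and the number of reads behind any score is unknown.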

How the data were processed

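The authors deposited 1 score profile per genotype. Per the file headers, each score is the ratio of H3K27me3 to input for a bin of 1000 bp after a step named QN. Both profiles held the same set of values, which quantile normalization produces. Scores ran from -5.58 to 4.27, and since no header or label states the base of their scale, differences and no folds are reported. Positions follow dm3, the build named in the submitters' processing notes. How reads were aligned and replicates merged is not given in the sources used. Each profile had 1263776 rows, each 100 bp wide, of which 1642 lay in the locus.

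Non-overlapping 1 kb windows were the rows whose start ends in 500, and each window was taken as centred on its row. The coordinates of windows and domains rest on this placement. Bins were assigned by row start. Means, standard errors over windows, Wilson intervals, domains and tile ranks were computed with Python 3.11.15, numpy 2.4.6, pandas 2.3.3 and scipy 1.17.1. Means, their standard errors and shares of enriched windows were checked on simulated profiles with independent windows, and the joining of domains on a made-up case. Wilson intervals and tile ranks were not checked in this way. Such a check cannot show whether the standard errors hold where neighbouring windows are alike. Bins named are those of the locus with the highest, lowest or most different scores, the bins beside them and at the flanks, and both direct neighbours of the genes in the table are named. The locus and the measures were chosen with earlier results of these data known. No sequence of the locus was used here.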

Additional observations from a re-analysis of the deposited data

How the results depend on the processing

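No paired analysis was possible because each deposited profile merges both replicates of its genotype, and for that reason no replicate could be left out. Leaving out the 50 kb from 1100000 and using all overlapping rows for bins were chosen after seeing the data. The locus mean became 0.285 in can and 0.28 in comr as a median, and 0.27 and 0.26 without the 50 kb from 1100000. The difference between mutants was -0.065 as a median. Enriched windows made up 14.0% in both mutants at the top 5% of windows, against 3.31% in can and 3.55% in comr on the rest of 3L. At the top 20% they made up 38.4% in can and 39.0% in comr, against 17.1% and 16.8%, and without the 50 kb the share in comr was 19.3%. Domains numbered 5 in can and 1 in comr at the top 5%, and 0 in can and 1 in comr with no gaps joined. The highest bin scored 0.58 in can and 0.72 in comr in bins of 20 kb. The correlation was 0.68 in bins of 5 kb and 0.75 in bins of 10 kb. By the median, 4 tiles in can and 7 in comr stood above the locus. With rows starting at each kb, 1 of the 18 bin differences moved by more than its standard error and 3 changed sign, none of them beyond 2 standard errors. The causes of these shifts were not tested. Depth is unknown and replicates are merged, which limits every value given.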

Other observations

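The correlation between adjacent windows of the locus was 0.13 in can and 0.30 in comr (161 pairs), against 0.19 and 0.28 over the rest of 3L. Between windows 10 kb apart it was 0.01 in can and 0.11 in comr (138 pairs), against 0.09 and 0.15. The standard errors over windows are therefore too small, by an amount that was not computed, and comparisons with 2 standard errors are too. In the 100 kb to the left of the locus the mutants' scores had a correlation of -0.02 across windows (n = 94), and 2 of the 22 windows enriched in either mutant were enriched in both. In the 100 kb to the right r was 0.25 (n = 92), with 6 of 37 windows shared. Within the locus the correlation was 0.38 in the left part (n = 73) and 0.43 in the right part (n = 91). Of the 21 windows of the locus enriched in both mutants, 17 lay in the right part. That part held 91 of the 164 windows and 46 of the 64 windows enriched in either mutant. Its border was placed at the peak after the values were seen, which favours the right part.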
